A study of Rattus norvegicus with 49 samples.

Results

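Afp (alpha-fetoprotein), Alb (albumin), Gc (vitamin D-binding protein), Ttr (transthyretin), Serpina7 (thyroxine-binding globulin) and Tf (transferrin) encode carrier proteins of blood plasma. These 6 genes were chosen by symbol and selected on earlier results of the same data, Afp for its level in the 10-month controls. Of the 6, 5 had a probe, 1 each, among 15154 gene symbols with a probe on the array, and Serpina7 had none. All 5 passed the filter on dim probes, as did 12414 symbols in all.

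Afp, Alb and Gc belong to the albumin gene family and lie in a cluster on the same chromosome. The liver makes these plasma proteins, and Afp is made at high levels by the foetal liver and yolk sac and is switched off after birth. Albumin, transthyretin and thyroxine-binding globulin carry thyroid hormone in blood, while transferrin carries iron and Gc carries vitamin D metabolites. Transthyretin is also made by the choroid plexus of the brain and transferrin by glial cells.

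Thyroid tissue of male Sprague Dawley rats was hybridised to 49 one-colour arrays, 1 rat per array, in 13 groups. Young rats received 131I intravenously at 5 weeks of age and adult rats at 17 weeks. Young rats given 50 kBq were examined after 3, 6 and 9 months, and those given 0.5, 5 or 500 kBq after 9 months. Adult rats given 50 kBq were examined after 3, 6 and 9 months. Untreated controls were 4, 7, 10 or 13 months of age, so that each exposed group had controls of its own age. There were 10 groups of 4 arrays and 3 groups of 3, the latter being young 5 kBq and the untreated rats of 7 and 13 months. Levels are given as log2 of the scanner's processed signal minus the 75th percentile of the array, so that 0 is a bright spot and a difference of 1 is a doubling. Levels of different probes are not compared with each other.

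Of the arrays, 3 stood apart and are named here because several values below rest on them. Replicate 2 of the young 50 kBq group at 3 months was dim, with 43.1% of spots well above background and a 75th percentile of 61.4, against 69.2 to 82.5% and 787 to 4167 on the other arrays. Replicate 3 of that group and replicate 2 of the 7-month controls were low in thyrocyte genes. The mean level of 10 such genes was -4.13 and -4.91 on them, against 0.05 to 2.49 on the other 47 arrays. Tg (thyroglobulin, the hormone precursor) stood at 0.13 and -0.70 on these arrays and at 6.41 to 7.91 on 46 others, the dim array left out. The muscle enzyme gene Ckm stood at 8.90 and 8.15, against -1.65 to 7.70 on the 46. The thyrocyte genes of these 2 arrays thus went against the label of thyroid tissue. A further array, replicate 3 of the adult 50 kBq group at 9 months, was low in muscle genes: the mean level of 7 such genes was -2.99 on it and 2.94 to 8.17 on every other array. Its thyrocyte genes were within the range of the other arrays, and it is not counted among the 3. In such whole-tissue samples, fewer cells of a type and less RNA per cell cannot be told apart. No spot was saturated.

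Afp, Alb and Gc share a stretch of chromosome 14. In the RefSeq annotation of the GRCr8 assembly, Afp lies at chr14:17857584-17875645, Alb at chr14:17891564-17907043 and Gc at chr14:18916255-18951670. Alb and Afp are 15918 bp apart and are transcribed in the same direction. The window of 250 bases before the annotated start is shown for these 3 genes, 5′ to 3′ on the strand of the gene, because Alb was measured on every array and Afp and Gc on few. The start is that of RefSeq's promoter table, which for Alb lies inside the span of the gene given above. Capitals mark TATAAA, the letters of a TATA box, which were searched on both strands together with the reverse complement TTTATA.
Afp, chr14:17875646-17875895, minus strand: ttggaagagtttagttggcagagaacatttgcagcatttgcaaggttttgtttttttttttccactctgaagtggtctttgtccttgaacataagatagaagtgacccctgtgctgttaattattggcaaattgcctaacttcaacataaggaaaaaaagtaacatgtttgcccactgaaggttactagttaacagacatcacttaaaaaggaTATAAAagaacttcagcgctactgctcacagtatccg
Alb, chr14:17906980-17907229, minus strand: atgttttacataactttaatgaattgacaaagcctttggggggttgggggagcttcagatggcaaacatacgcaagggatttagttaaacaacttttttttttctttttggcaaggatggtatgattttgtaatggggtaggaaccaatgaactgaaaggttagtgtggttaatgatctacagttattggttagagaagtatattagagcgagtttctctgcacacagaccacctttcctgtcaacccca
Gc, chr14:18916005-18916254, plus strand: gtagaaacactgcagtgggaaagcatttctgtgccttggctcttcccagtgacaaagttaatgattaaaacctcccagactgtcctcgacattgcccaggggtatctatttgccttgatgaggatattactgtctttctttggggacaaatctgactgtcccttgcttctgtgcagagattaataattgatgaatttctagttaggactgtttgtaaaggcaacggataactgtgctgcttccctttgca
The match starts 37 bases before the annotated start of Afp, and the windows of Alb and Gc held none. The letters occurred in the windows of 2 of the 6 members, Afp and Tf, and in 12.9% of all 33469 windows of this length. A match describes the letters and shows no binding.

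Afp was detected in few groups. It was well above background on 11 of 49 arrays, 6 of exposed rats and 5 of controls, with processed signals of 30.2 to 194 there and of 2.52 to 16.8 on the other 38. The 10-month controls were the only group with Afp on all its arrays, at -4.83, -4.59, -5.04 and -5.25. Their mean was -4.93 ± 0.28 (SD, n = 4). This is the pattern for which Afp was selected, and it is described without a test.
In the 4-month controls Afp stood at -6.05, -8.84, -6.70 and -9.46, and only the brightest was well above background. In the controls of 7 months it stood at -8.94, -9.24 and -8.30, and in those of 13 months at -9.07, -8.78 and -8.87, with no array well above background in either group. The untreated rats thus had Afp on all 4 arrays at 10 months and on 1 of 10 at the other ages.

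Among young rats 9 months after injection, of the same age as those controls, Afp was at background after the 3 lower activities. It stood at -9.33, -9.07, -8.60 and -9.25 after 0.5 kBq, at -9.75, -9.35 and -10.11 after 5 kBq and at -8.88, -9.40, -9.55 and -9.69 after 50 kBq. No array of these groups was well above background. Each dim array was set no lower than its own dimmest probe well above background. The 10-month controls were then 3.97-fold higher than the 0.5 kBq group, 5.84-fold than the 5 kBq group and 4.73-fold than the 50 kBq group. These folds are no strict lower limits, since a probe can lie above that level and still not be well above background.
After 500 kBq the levels were -5.19, -8.43, -8.52 and -8.99. Replicate 1 alone was well above background and lay among the controls, while the other 3 arrays lay far below. In ascending order of activity, the measured mean differences from the controls were -4.13, -4.80, -4.45 and -2.85. With normexp background correction, whose added offset of 50 is of the size of the Afp signals and narrows differences between dim spots, these differences were -1.31, -1.85, -1.19 and -1.06. All comparisons with the 10-month controls share the same 4 control arrays. Within the scan time that holds 3 of those controls, the difference was -4.11 for 0.5 kBq (3 against 3 arrays) and -4.39 for 50 kBq (2 against 3). The 500 kBq group had no array in that scan time. In the only scan time it shares with these controls, the difference was -3.39 (1 against 1). For its other arrays, activity and scan time cannot be told apart.

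Young rats given 50 kBq had no Afp signal well above background at the earlier times. The levels were -9.40, -4.21, -7.01 and -8.86 at 3 months, where -4.21 is the dim array and lies under that array's own floor of -2.02. At 6 months they were -9.59, -9.57, -9.85 and -8.58. The limma difference from controls of the same age was 0.39 (SE 0.99, adjusted p = 0.789) at 3 months and -0.58 (SE 1.06, adjusted p = 0.953) at 6 months.

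In rats injected as adults, the number of arrays with Afp was 0 of 4 at 3 months, 2 of 4 at 6 months and 3 of 4 at 9 months. At 3 months the levels were -9.49, -9.41, -9.62 and -8.55. At 6 months they were -6.00, -5.61, -9.46 and -9.16, so that 2 arrays were well above background and 2 were at it. All 4 lay below the 10-month controls of the same age, by 2.63 in the mean.
At 9 months they were -4.13, -3.96, -9.69 and -3.91. Replicates 1, 2 and 4 gave the 3 highest Afp levels of the 49 arrays, and replicate 3 was at background. Against the 13-month controls the limma difference was 3.48 (SE 1.06, adjusted p = 0.0460). With those controls set no lower than their floor, the group with 3 of 4 arrays measured was 2.46-fold higher. The groups overlapped through replicate 3, and the exact two-sided permutation test over 4 and 3 arrays gave p = 0.143, where 0.0286 is the smallest it allows. This did not pass the cut-off of an adjusted p under 0.01. It did in limma without the 3 arrays that stood apart, with an adjusted p of 0.00999, and without replicate 3 of the exposed group, with a difference of 4.91 (SE 0.95, adjusted p = 0.00111). Over the alternatives that kept every array or left out several, the limma adjusted p ran from 1.75e-07 to 0.527, the highest being normexp background correction with a difference of 0.54.
Cell type genes differed between these groups too. The mean of the 7 muscle genes was 6.31, 6.62 and 6.52 on the exposed replicates 1, 2 and 4, which had Afp, and -2.99 on replicate 3, which had none. In the 13-month controls, also without Afp, it was 2.94 to 3.90. The mean of the 10 thyrocyte genes was 1.19 to 1.78 in the exposed rats and 2.05 to 2.49 in these controls. Muscle genes were at 5.69 to 6.60 in the young 5 kBq group, where Afp was at background, and at 6.39 to 6.78 in the 10-month controls. The part of these cell types in the Afp difference was not tested.
Within the scan time that both groups share, the difference was 2.06 (2 against 2 arrays), and within the slide they share it was -0.72 (1 against 2 arrays), since the shared slide held replicate 3. With the slide as a block the limma difference was 2.63 (SE 1.04, adjusted p = 0.0991). The change of the adult 50 kBq difference from 3 to 9 months was 3.93 (SE 1.51, limma adjusted p = 0.202) and was not called.

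**Figure D1:**
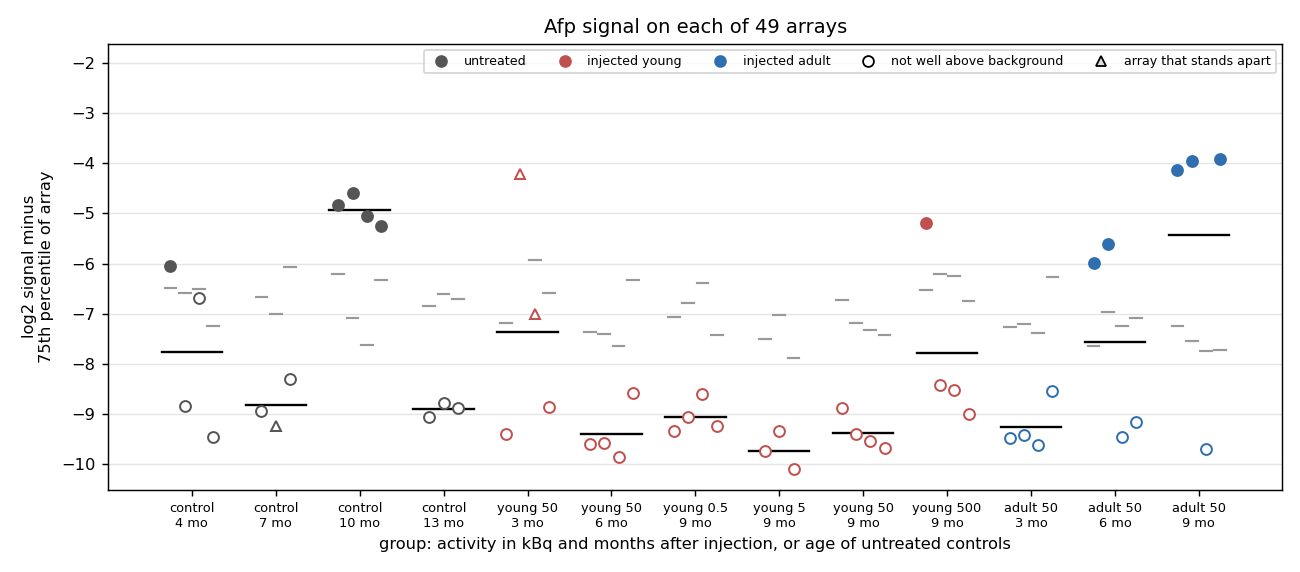
Afp on each of the 49 arrays, as log2 processed signal minus the 75th percentile of the array, by group. Filled points are well above background, open points are not, grey ticks give the dimmest probe well above background on each array (that of the dim array, at -2.02, lies behind the key), black lines are group means, and triangles are the 3 arrays that stood apart. The filled points are the 4 controls of 10 months, 3 adult rats at 9 months, 2 adult rats at 6 months, 1 rat at 500 kBq and 1 control of 4 months.

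The 13 group means of Afp ran from -4.93 in the 10-month controls to -9.73 in young rats given 5 kBq. Next to the 10-month controls came the adult 50 kBq group at 9 months at -5.42 ± 2.85 (SD, n = 4), a gap of 0.50 between the means. Replicates 1, 2 and 4 of this group lay above all 10-month controls and replicate 3 was at background, so no array lay near its mean. After a gap of 1.95, the 1 of 12 gaps in this order above the spread of 1.43 within groups, followed the young 50 kBq group at 3 months, whose place rests on the dim array. From the adult 50 kBq group at 6 months (-7.56) and the 4-month controls (-7.76) to the 500 kBq group (-7.78), neighbours lay closer than the spread, and the remaining 7 groups lay between -8.82 and -9.73, where no array was well above background. The arrays with Afp came from all 3 scan times, with 6 of 24, 1 of 14 and 4 of 11 arrays.
No gene followed Afp closely over the 49 arrays. The symbols with the highest Pearson r were Dusp9 (0.53), a phosphatase of MAP kinases, Vtcn1 (0.52), an inhibitor of T cell activation, Per3 (0.50), a circadian clock gene, Plekhh3 (0.49) and Iqcm (0.48). Without the 3 arrays that stood apart, these r were 0.50, 0.48, 0.48, 0.44 and 0.41.

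Alb was measured well above background on all 49 arrays and varied more between rats of a group than between groups. Its level ran from -2.95 to 3.53, an 88.8-fold range, and its spread within groups was 1.4996 (SD, 36 residual degrees of freedom) against 0.91 for the SD of the 13 group means. Alb, the neighbour of Afp on the chromosome, was thus measured on the 38 arrays where Afp was not, and over the 49 arrays r between the genes was 0.14 (rho 0.13).
The levels in the 10-month controls were 3.51, 2.31, 1.99 and 3.09, and these formed the highest group mean, 2.72 ± 0.70 (SD, n = 4). In the 4-month controls they were -2.26, 2.33, -0.50 and 0.29, the lowest group mean, -0.03 ± 1.90 (SD, n = 4). One of these younger rats lay inside the range of the 10-month rats and 3 lay below it. The limma difference was 2.76 (SE 1.03, adjusted p = 0.923), with an exact two-sided permutation p of 0.0857, where 0.0286 is the smallest possible. Within the scan time both groups share it was 2.93 (3 against 2 arrays).
The 7-month controls stood at 0.84, 2.89 and 1.85 and the 13-month controls at 1.96, 1.91 and -0.87. Both groups overlapped the 4-month controls. The 7-month controls also overlapped those of 10 months, and all 3 of the 13-month controls lay below them.

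In young rats at 9 months, Alb stood at 3.23, -2.95, 1.00 and 2.31 after 0.5 kBq, at 2.84, 0.28 and 0.67 after 5 kBq, at 3.102, 1.26, 1.78 and 2.66 after 50 kBq and at 0.77, 2.21, -1.20 and 1.05 after 500 kBq. All 4 groups overlapped the 10-month controls, and all 4 means were lower, by 1.83, 1.46, 0.52 and 2.02. The largest of these differences, at 500 kBq, had a limma SE of 1.03 and an adjusted p of 1.000, and an exact two-sided permutation p of 0.0571, where 0.0286 is the smallest possible.
In young rats given 50 kBq the levels were 1.23, -1.4998, 1.91 and 0.10 at 3 months and -2.63, 1.75, 1.41 and 1.49 at 6 months. In rats injected as adults they were 0.46, 2.15, 0.84 and -0.46 at 3 months, 2.79, 2.65, 1.05 and 2.63 at 6 months and 3.53, 2.72, 2.66 and 1.64 at 9 months. Single low arrays set the spread in the young 0.5 kBq and young 6-month groups. The largest difference from controls outside the 10-month age was 1.64 (SE 1.11, limma adjusted p = 0.403) in adults at 9 months. None of the 12 gaps in the order of the 13 group means exceeded the spread within groups.

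**Figure D2:**
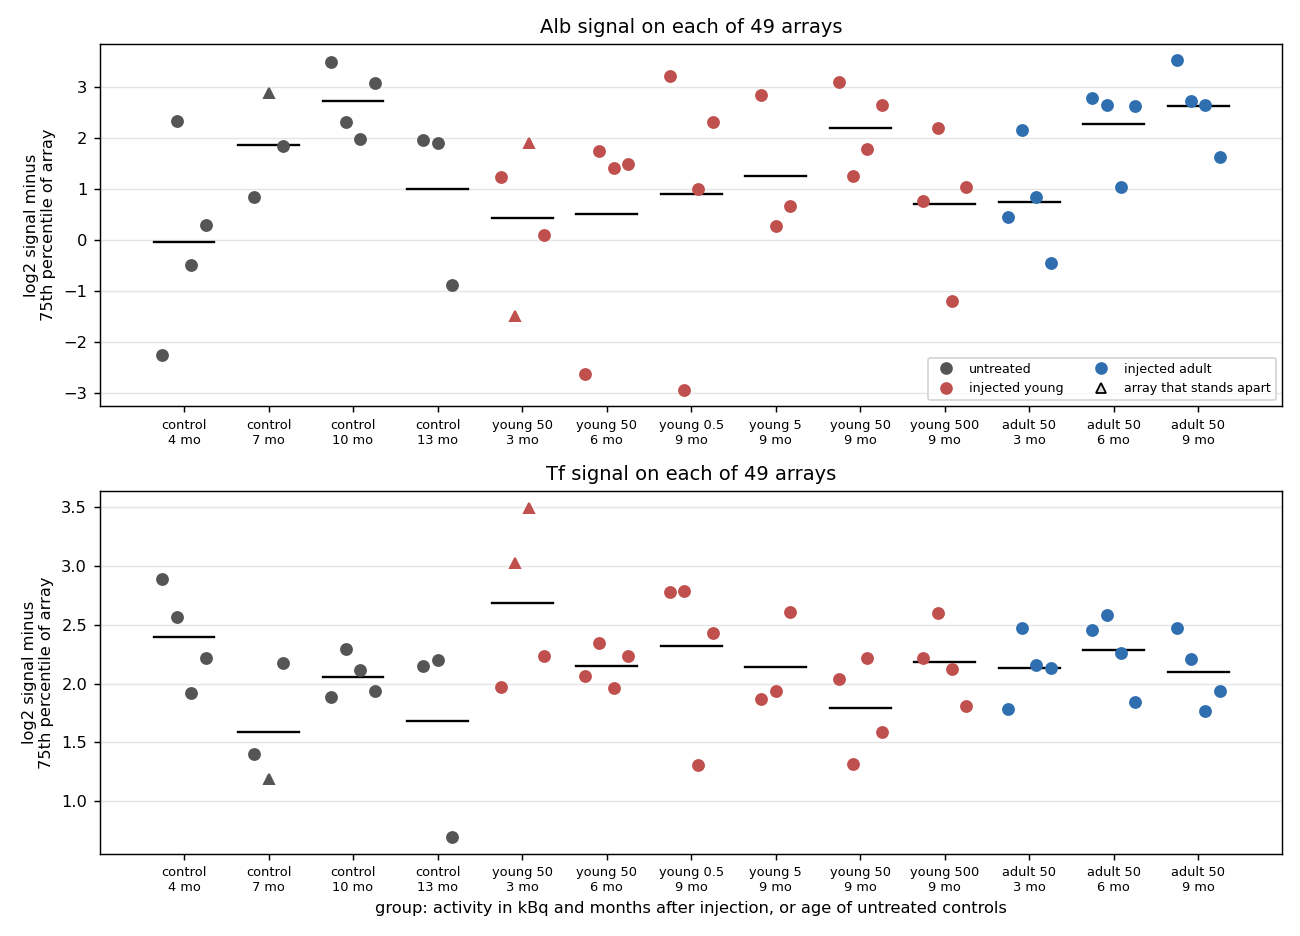
Alb and Tf on each of the 49 arrays, as log2 processed signal minus the 75th percentile of the array, by group, with black lines at the group means and triangles for the 3 arrays that stood apart. Both genes were well above background on every array, and the arrays of 1 group spread as widely as the groups do from each other.

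The level of Alb followed that of fat genes. The symbols with the highest r over the 49 arrays were Fabp4 (0.92), the fatty acid-binding protein of adipocytes, Tlcd3b (0.92), Trem3 (0.92), Mst1 (0.91) and Cidea (0.91), a lipid droplet protein of brown fat. With the 3 arrays left out these r were 0.93, 0.93, 0.93, 0.93 and 0.94.
Against the mean level of 7 white adipocyte genes, Alb had r = 0.88 and rho = 0.91 over 49 arrays. The r was 0.84 without the 2 arrays farthest from the median of the fat genes, 0.85 for deviations from the group means, and 0.91, 0.77 and 0.81 within the scan times of 24, 14 and 11 arrays. Against 11 tested genes of other plasma proteins made by the liver, r was -0.09 (rho 0.01), and it was 0.05 without the 2 farthest arrays. Against 7 hepatocyte enzymes it was 0.05 (rho 0.19), 0.24 without the 2 farthest arrays and 0.31 without the 3 arrays that stood apart, and within the scan times it was 0.37, -0.39 and -0.23. These relations, 16 in all, are descriptions over arrays that share slides and scan times, and carry no test. The part of fat in the Alb level was not tested. The fat genes' mean ran from 1.16 to 1.91 in the 10-month controls and from -0.64 to 1.92 in the 4-month controls, and from 0.22 to 1.69 after 500 kBq.

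**Figure D3:**
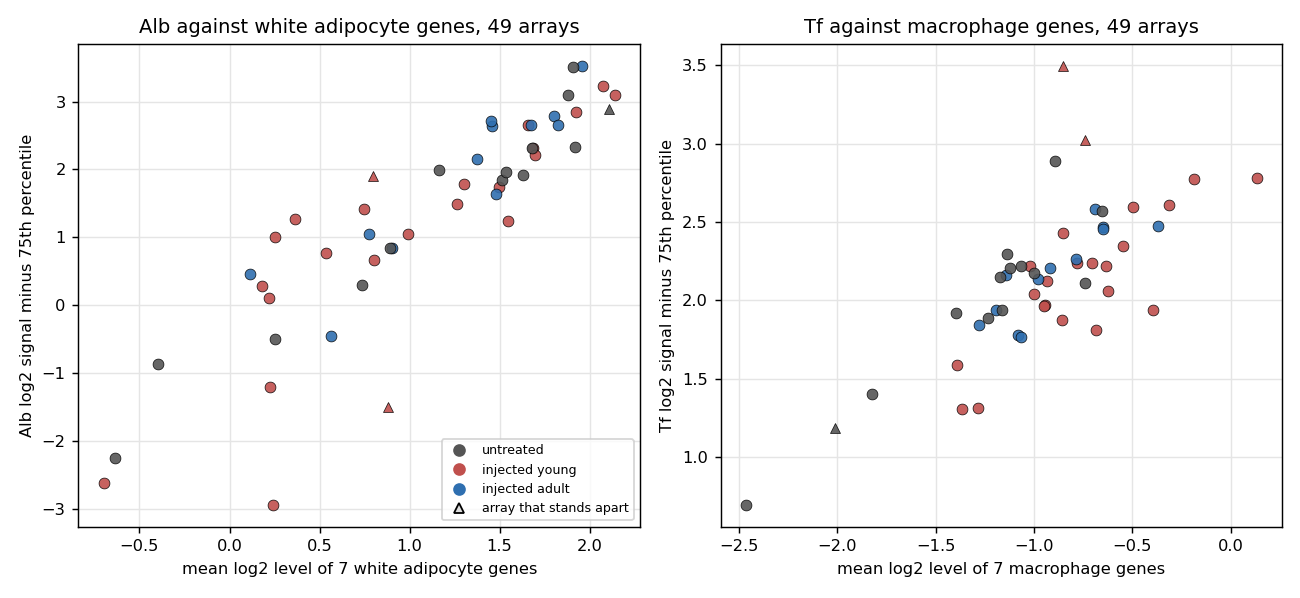
Alb against the mean log2 level of 7 white adipocyte genes (left) and Tf against that of 7 macrophage genes (right), 1 point per array, coloured by untreated, young and adult injected rats, with triangles for the 3 arrays that stood apart. Over the 49 arrays r was 0.88 for Alb with the fat genes and 0.75 for Tf with the macrophage genes.

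Gc, the carrier of vitamin D, was near background in these samples. It was well above background on 3 of 49 arrays: replicate 3 of the young 50 kBq group at 3 months (-3.43), replicate 2 of the young 50 kBq group at 6 months (-5.09) and replicate 2 of the adult 50 kBq group at 9 months (-7.02). The other arrays lay between -9.44 and -7.01, apart from the dim array at -3.93. The first of these 3 is an array low in thyrocyte genes.
The limma difference of the young 50 kBq group at 3 months from the 4-month controls was 2.33 (SE 0.73, adjusted p = 0.0316), with an exact two-sided permutation p of 0.257, where 0.0286 is the smallest possible. It did not pass the cut-off, but in limma it did without replicate 1 (3.34, adjusted p = 0.00110) or replicate 4 (2.93, adjusted p = 0.00512) of that group, which leaves the dim array and the one low in thyrocyte genes among 3. Without the dim array the limma difference was 1.61 (adjusted p = 0.201). Without all 3 arrays, too few arrays held Gc for it to be tested. Of the arrays in this comparison, 1 exposed and 0 control arrays were well above background. That 1 array, replicate 3, was also needed for Gc to pass the filter of 3 arrays. The limma p for Gc here thus rest mostly on signals at background and cannot decide whether Gc differed. All 4 arrays of the adult group at 9 months, -7.57, -7.02, -7.88 and -7.58, lay above the 13-month controls of -8.27, -8.59 and -8.65, but only 1 of these 7 was well above background. In that comparison the limma difference was 0.99 (SE 0.79, adjusted p = 0.494), with an exact two-sided permutation p of 0.0286, the smallest possible.

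Ttr, which carries thyroxine and retinol-binding protein, was well above background on 39 of 49 arrays and had the widest range of the members, from -8.10 to 0.89. Replicate 3 of the young 50 kBq group at 3 months was the highest, at 0.89, and replicate 2 of the young 50 kBq group at 6 months followed at -2.02. The other 47 arrays lay at -3.08 or below.
In the controls Ttr stood at -6.08, -5.22, -6.27 and -4.97 at 4 months, at -4.62, -3.23 and -3.08 at 7 months, at -5.62, -5.02, -5.79 and -6.07 at 10 months and at -6.82, -6.65 and -8.10 at 13 months. The 7-month controls lay above all 4-month controls and the 13-month controls lay below all of them, with no array well above background at 13 months. The limma difference from the 4-month controls was 2.00 at 7 months (SE 0.83, adjusted p = 0.520) and -1.55 at 13 months (SE 0.83, adjusted p = 0.174). The exact two-sided permutation p was 0.0286 in both cases, the smallest that 3 and 4 arrays allow. With the 13-month controls set no lower than their floor, the 4-month controls were 2.10-fold higher. Of the 4-month controls, 2 of 4 arrays were well above background, and the others kept their measured values. Without the 3 arrays the limma differences were 1.79 (adjusted p = 0.245) and -1.55 (adjusted p = 0.0327), neither of which passed. Within shared scan times they were 1.78 at 7 months (2 against 2 arrays) and -1.81 (2 against 2) and -1.02 (1 against 2) at 13 months.

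In exposed young rats Ttr stood at -4.80, -3.67, 0.89 and -5.33 at 3 months and at -4.43, -2.02, -4.94 and -4.23 at 6 months after 50 kBq. The difference from the 4-month controls at 3 months was 2.41 (SE 0.77, limma adjusted p = 0.0327, exact two-sided permutation p = 0.0857 with a smallest possible p of 0.0286). Without the 3 arrays, of which 2 belong to this group, the limma difference was 0.57 (SE 0.66, adjusted p = 0.718). The limma difference was 2.93 (adjusted p = 0.00674) without replicate 1 and 3.11 (adjusted p = 0.00430) without replicate 4, both past the cut-off. The array at 0.89 is the one low in thyrocyte genes.
At 9 months the levels of the 4 young groups ran from -6.94 to -3.80 and overlapped the 10-month controls, with mean differences between -0.49 and 0.30. In adult rats Ttr stood at -5.54, -5.37, -5.01 and -4.84 at 3 months, at -5.88, -6.14, -5.88 and -6.23 at 6 months and at -6.47, -5.26, -5.25 and -6.05 at 9 months. At 3 months all 4 lay below the 7-month controls, by 1.55 (SE 0.83, limma adjusted p = 0.990, exact two-sided permutation p = 0.0286, the smallest possible). At 9 months all 4 lay above the 13-month controls, by 1.43 (SE 0.83, limma adjusted p = 0.310). With those controls set no lower than their floor, the fold was 1.93. Neither difference passed the cut-off. The change of the adult difference from 3 to 9 months was 2.98 (SE 1.17, limma adjusted p = 0.211).

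**Figure D4:**
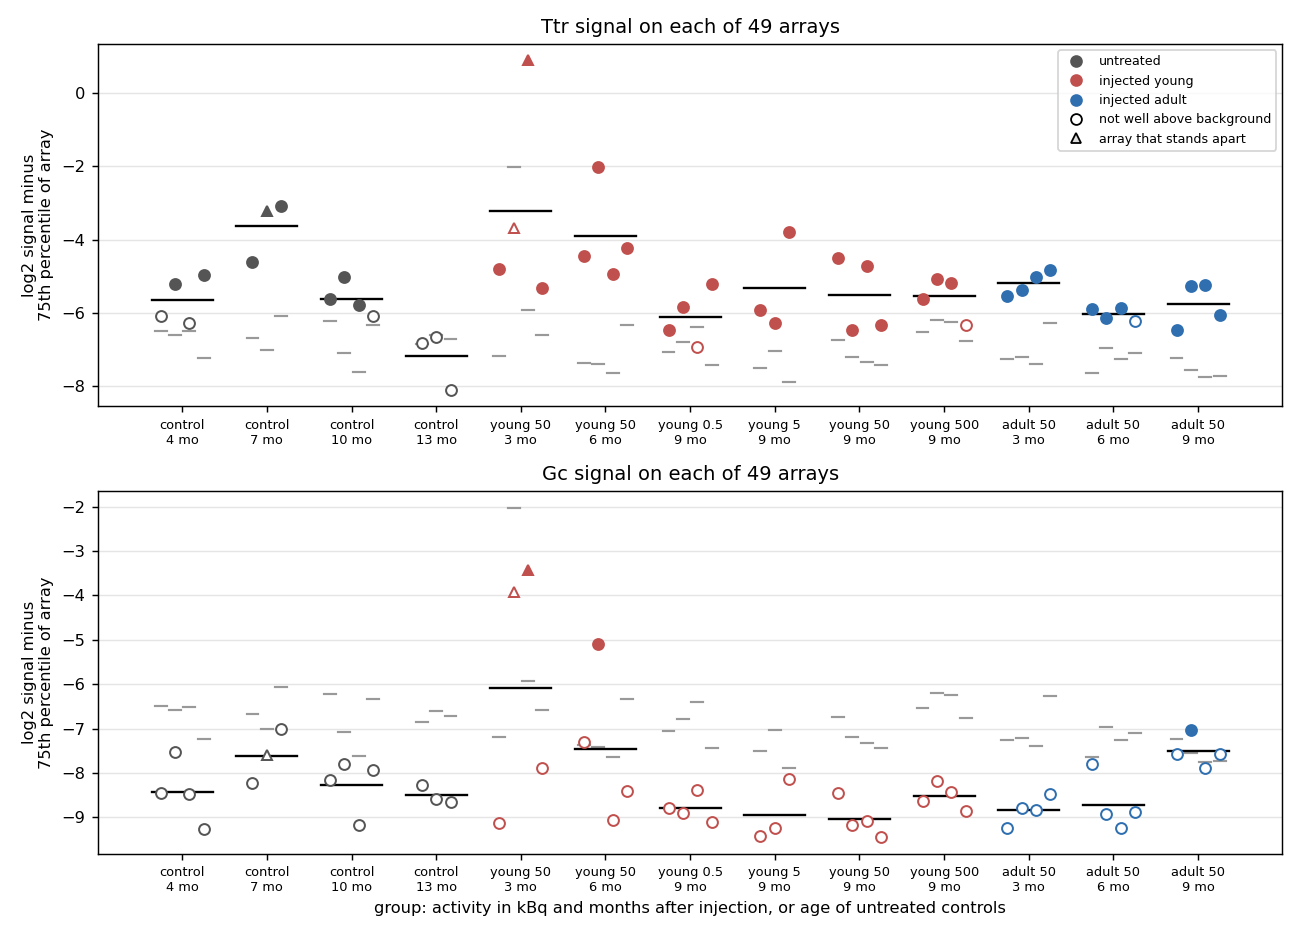
Ttr and Gc on each of the 49 arrays, as log2 processed signal minus the 75th percentile of the array, by group. Filled points are well above background, open points are not, grey ticks give the dimmest probe well above background on each array, and triangles are the 3 arrays that stood apart. The highest Ttr signals were 0.89 and -2.02, and the same arrays gave the Gc signals of -3.43 and -5.09.

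Genes of other liver products were also found on the 2 arrays with the highest Ttr. Fga, Fgb and Fgg, which encode the fibrinogen chains, were each well above background on 2 of 49 arrays, and these were the same arrays. Fgb stood at -2.13 and -5.11 on them, Ambp (the bikunin precursor) at -1.40 and -4.58, and Serpinc1 (antithrombin) at -2.64 and -5.21. On replicate 3 of the young 50 kBq group at 3 months, all 11 tested genes of this list were well above background with a mean of -2.12. The dim array had a mean of -2.39 with 3 of 11 well above background, and the other 47 arrays lay between -5.18 and -3.92. Of 10 hepatocyte enzyme genes, Cps1, Tat and Uox were not well above background on any array, these 2 included. G6pc1, of glucose release, was on both, at -3.64 and -5.60, and on 8 of 49 arrays in all. Of the 7 enzymes detected on any array, 1, G6pc1, was highest on replicate 3 of the young 50 kBq group at 3 months. Cyp2e1, Hpd, Arg1 and Asgr1 were highest on arrays other than these 2. The part of RNA of liver or of another tissue in the Ttr and Gc signals was not tested.
Over 49 arrays the symbols closest to Ttr were Mup4l1 (r = 0.86), a major urinary protein gene, Saa4 (0.79), Serpinc1 (0.77), Myo9b (0.72) and Fabp1 (0.71), the fatty acid-binding protein of liver. Without the 3 arrays these r were 0.76, 0.55, 0.62, 0.49 and 0.50. The order of the symbols changed too. Ranked without the 3 arrays, the closest to Ttr were Mup4l1 (0.76), Miox (0.63), Cyp2c23 (0.62), Serpinc1 (0.62) and Pex5 (0.60). Only Mup4l1 and Serpinc1 were thus named in both rankings, and Saa4, Myo9b and Fabp1 were not among the closest in the second. Against the list of other plasma proteins made by the liver, r of Ttr was 0.67 (rho 0.44), 0.42 without the 2 arrays farthest from the median of the list, and 0.85, 0.54 and -0.15 within the scan times of 24, 14 and 11 arrays. The relation was thus weaker without a few arrays and did not hold in the smallest scan time. With parathyroid genes Ttr had r = -0.58 (rho -0.49; -0.38 without the 2 farthest arrays) and with C cell genes r = -0.62 (rho -0.46; -0.40 without the 2 farthest).

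Tf, the iron carrier, was well above background on all 49 arrays and varied least, from 0.69 to 3.50, a 6.97-fold range. Its spread within groups was 0.46 and the SD of the group means 0.30. In the 10-month controls it stood at 1.88, 2.30, 2.11 and 1.94, and the 4 young groups at 9 months ran from 1.31 to 2.78 around them. The differences from these controls were 0.27, 0.08, -0.27 and 0.13, in ascending order of activity, each with a limma SE of 0.32 or 0.35, and 0.23 (SE 0.32) for adults at 6 months. Their adjusted p was 1.000 in each case.
The highest level, 3.50, and the next, 3.02, came from the 2 arrays of the young 50 kBq group at 3 months that stood apart, and the other 2 arrays of that group stood at 1.97 and 2.24. The 4-month controls were at 2.89, 2.57, 1.92 and 2.22. The controls of 7 months were at 1.40, 1.19 and 2.17, and those of 13 months at 2.15, 2.20 and 0.69, both with 1 or more arrays inside the range of the 4-month controls. The limma differences from the 4-month controls were -0.81 (SE 0.35, adjusted p = 0.541) and -0.72 (SE 0.35, adjusted p = 0.137). In scan times shared by the groups, the 13-month difference was -1.31 (2 against 2 arrays) and 0.14 (1 against 2), so that its direction was not the same.
Rats given 50 kBq had a higher mean Tf than their controls at 6 months when young (0.56, SE 0.35, limma adjusted p = 0.794) and at 3 and 9 months when adult (0.55, SE 0.35, adjusted p = 0.997; 0.41, SE 0.35, adjusted p = 0.527), none of which passed. The young difference at 6 months and the adult one at 3 months share the 7-month controls, whose lowest array, at 1.19, is low in thyrocyte genes. Without the 3 arrays that stood apart they were 0.36 and 0.35 (SE 0.36 each).

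Tf followed genes of connective tissue and macrophages. The symbols closest to it were Alox5 (r = 0.90), the 5-lipoxygenase of white blood cells, C1qb (0.89), a complement chain made by macrophages, Cd248 (0.87), a membrane protein of fibroblasts and pericytes, Emp3 (0.86) and Mfap5 (0.86), a microfibril protein. With the 3 arrays left out their r were 0.88, 0.87, 0.88, 0.83 and 0.87. Against 7 macrophage genes r was 0.75 (rho 0.72), 0.63 without the 2 farthest arrays, and 0.72, 0.62 and 0.91 within the 3 scan times. Against 9 Schwann cell genes it was 0.59 (rho 0.49) and 0.55 without the 2 farthest arrays. Against 10 thyrocyte genes it was -0.16 (rho -0.28), and it was -0.65, 0.02 and 0.58 within the scan times. Alb and Tf were unrelated over the arrays (r = -0.06, rho -0.02).

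No member was called in any comparison at an adjusted p under 0.01 and a fold above 1.5. Against controls of the same age, 0 of 40 member comparisons were called by limma, with Afp against the 10-month controls left out, and 3 of 40 (7.5%) had an unadjusted p under 0.05, against 8.78% of all probe tests in these comparisons. Of the 24114 probes tested, 0% were called after 0.5 kBq and after 500 kBq in young rats at 9 months, 0.0124% after 5 kBq and 0.0124% after 50 kBq. The share was 0% for young 50 kBq at 3 and at 6 months and for adult 50 kBq at 3 and at 6 months, and 0.655% for adult 50 kBq at 9 months. Where no probe was called, 212 to 9023 probes had an unadjusted p under 0.05. The share for adults at 9 months was 9.57% without the 3 arrays that stood apart, and 1 of 40 member comparisons, Afp in adults at 9 months, then passed.
Between control ages, 0 of 14 member comparisons were called by limma and 4 (28.6%) had an unadjusted p under 0.05, against 15.8% of all probe tests in these comparisons. The background was 0.00415% of probes at 7 against 4 months, 0.0124% at 10 against 4 months and 5.81% at 13 against 4 months, and the last became 23.2% without the 3 arrays. Between young and adult rats of the same age after 50 kBq, 0 of 10 member comparisons were called by limma. Of all probes, 0% were called at 7 months of age and 0.0124% at 10 months. Of the 10 member comparisons, 0 had an unadjusted p under 0.05, against 0.865% of all probe tests in these comparisons. The differences for Ttr were 1.29 (SE 0.77) and 0.53 (SE 0.77), and for Gc 1.37 (SE 0.73) and -0.33 (SE 0.73), each with a limma adjusted p of 1.000.
In the tests of whether the 50 kBq difference changed with time, 0 of 18 member comparisons were called. An unadjusted p under 0.05 in limma was found for 5 (27.8%), against 16.8% of all probe tests. Comparisons of one injection age share their 3-month difference, and that of young rats includes the dim array and 1 low in thyrocyte genes. The share of probes called was 0% in each of these 4 comparisons. The lowest adjusted p among members was 0.118, for Ttr in young rats from 3 to 6 months (-2.67, SE 1.13), and without the 3 arrays that difference was -0.63 (adjusted p = 0.951).

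**Figure D5:**
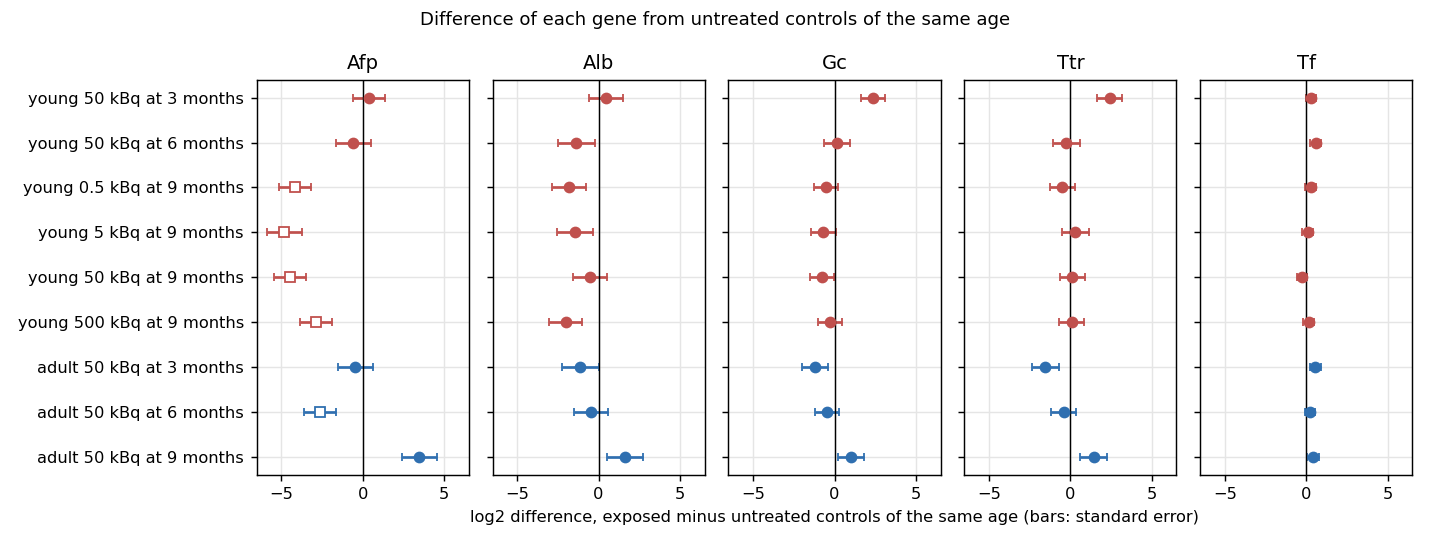
Log2 difference of each member from untreated controls of the same age in the 9 exposed groups, with the limma standard error as bars. Open squares for Afp are the differences from the 10-month controls, the pattern for which it was selected, and carry no test. No filled point passed an adjusted p under 0.01.

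The other genes of this pathway, taken from fixed lists, showed little. Of 15 other serum carriers, 4 were well above background on all 49 arrays, 10 on some and 1, Afm (afamin, the neighbour of Afp in the cluster), on none. None of the 13 tested was called in the 9 comparisons of exposed rats with controls, nor was any of 9 uptake receptors, 10 regulators of Afp and Alb transcription, 11 other plasma proteins made by the liver or 7 hepatocyte enzymes. When the 3 arrays were left out, 2 carriers and 1 regulator were called in these comparisons. Of all probes, 9.57% were then called in adults at 9 months, and 0.0333% or fewer in each of the other comparisons.
Between controls of 13 and 4 months, 4 genes of these lists were called. Igfals, which binds the insulin-like growth factor complex, rose by 1.89 (SE 0.39, limma adjusted p = 0.00231) and Tfrc, the transferrin receptor, fell by 1.68 (SE 0.28, adjusted p = 0.000595). Of 10 tested regulators limma called 2. Zbtb20, a repressor of Afp in the liver after birth, rose by 1.08 (SE 0.27, adjusted p = 0.00638) and Nr2f2, a nuclear receptor, rose by 1.61 (SE 0.36, adjusted p = 0.00335). The median of the 10 regulators in this comparison was 0.83, beside 0.20 for all probes. All 4 were also called without the 3 arrays. In this comparison 5.81% of all probes were called, and the 13-month controls had 75th percentiles of 1331 to 1447, among the lower values of the 49 arrays. Cell type genes shifted in the same comparison, with medians of 3.67 for 8 C cell genes, 1.66 for 10 thyrocyte genes, -2.30 for 7 muscle genes and -6.10 for 6 genes of squamous epithelium. The part of these shifts in the differences of the 4 genes was not tested. Of the remaining regulators, Onecut1 and Gata4 were not well above background on any array.
The 12 lists of other cell types ran from thyrocytes and C cells to muscle, fat and lymphocytes. Of their genes, 0 were called in the comparisons of exposed rats with controls. When the 3 arrays were left out, 1 thyrocyte and 2 macrophage genes were called there, beside the shares of all probes given above. Between control ages 1 was called, Pmp22 of Schwann cells, which fell by 1.18 at 13 against 4 months (SE 0.28, limma adjusted p = 0.00559). When the 3 arrays were left out, the calls at 13 against 4 months were 4 of 10 thyrocyte, 6 of 8 C cell and 2 of 4 choroid plexus genes, all higher, and 2 of 9 Schwann cell and 2 of 7 macrophage genes, all lower. In that fit 23.2% of all probes were called in this comparison. Otx2 and Clic6, also on the choroid plexus list, were not well above background on any array and were not among the genes tested.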

How the data were processed

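RNA of whole thyroids was hybridised to one-colour Agilent arrays. The deposited values are intensities: per the file headers, Feature Extraction 10.7.3.1 subtracted local background and detrended each array. Other deposited columns are marks of 0 or 1 for spots well above background, saturated or outliers. A further deposited table of the authors' own fold changes was not used. Partek is named in the submitters' processing notes.

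Outlier and control spots were dropped, log2 processed signals were centred on the 75th percentile of each array, and spots of a probe were averaged. Of 30367 probes, 24114 passed the filter (3 or more arrays well above background) and were tested with limma 3.58.1 in R 4.3.3, with 1 mean per group over all 49 arrays. Calls needed a Benjamini-Hochberg adjusted p under 0.01 and a fold above 1.5. Single values were also tested by exact permutation. Folds given with a floor set a dim array of the lower group no lower than its dimmest probe well above background. Dim arrays of the higher group kept their measured values. Such folds are no strict lower limits. Ttr on replicate 4 of the adult 50 kBq group at 6 months, at -6.23, lay above the floor of -7.09 without being well above background. Arrays hold no read counts, so their number limits the precision. Members were matched through RefSeq accessions, which gave symbols to 17998 probes.

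The members, the gene lists and the rules were chosen with earlier results of these data known. Genes named were the members, the called genes of fixed lists, at most 3 per list and comparison, genes that check a tissue, and the 5 symbols with the highest r to each member measured on most arrays and to Afp. For Ttr the 5 symbols ranked without the 3 arrays were named too. A gene's brightest probe stood for it. The lists were other serum carriers, uptake receptors, regulators, other liver plasma proteins, hepatocyte enzymes and 12 cell types. Alternatives were quantile normalisation, normexp, 2 other filters, slide, scan time and replicate number as blocks, array weights, a threshold of 0.05, other sets of arrays, averaged probes, and each array left out. Leaving out the 3 arrays that stood apart and a percentile over probes were chosen after seeing the data. Normexp used the median spot signal, and array weights used the gene-by-gene method. Replicate numbers marked no shared animal: same-numbered arrays' deviations had r of -0.54 to 0.70. Scripts were tested on simulated data. Python 3.11.15 and matplotlib 3.10.9 drew the figures. Some items are not reported here.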

Additional observations from a re-analysis of the deposited data

Results flagged for a closer look

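In groups of 4 arrays, 4 of 50 member values had 1 array far from the other 3 (8%), where chance gives about 1 in 20 (5%). Afp in adult rats 9 months after 50 kBq was -9.69 on replicate 3, not well above background, and -4.13 to -3.91 on the other 3. Afp in young rats 9 months after 500 kBq was -5.19 on replicate 1, well above background, and -8.99 to -8.43 on the others. Alb in adult rats 6 months after 50 kBq was 1.05 on replicate 3 and 2.63 to 2.79 on the others. Alb in young rats 6 months after 50 kBq was -2.63 on replicate 1 and 1.41 to 1.75 on the others, and the white adipocyte genes of that group ran from -0.70 to 1.497. What set these arrays apart was not tested.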

How the results depend on the processing

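No member difference that was followed changed direction in the settings that could be run for it, which were 10 to 14 alternatives and 46 to 49 fits with 1 array left out. The lower numbers are those of Gc, which the filter removed in the others. Exposed against controls of the same age, member calls by limma were 0 as reported, 3 at an adjusted p under 0.05 (Afp in adults at 9 months, Gc and Ttr in young rats at 3 months), 2 with array weights (Afp in adults at 9 months, 4.67; Ttr in adults at 3 months, -2.07) and 1 without the 3 arrays that stood apart. Leaving out 1 array gave 0 to 2. For the change with time, array weights gave 3 calls, all in adults from 3 to 9 months (Afp 5.64, Gc 2.67, Ttr 2.99). With weights 32.6% of all probes were called in adults at 9 months, against 0.655% without, and 24.5% for the change in adults from 3 to 9 months, against 0%. With normexp and an offset of 50 the Afp differences from the 10-month controls were -1.31, -1.85, -1.19 and -1.06 in young rats, in ascending order of activity, and -0.92 in adults. The causes were not tested. With the replicate number as a block 0 members were called, and same-numbered arrays did not pair: every pair's r was over 0.1 in 1 of 14 comparisons. Slide and scan time as blocks also gave 0 calls. Afp and Gc lay near background on most arrays, which limits both.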
